A study of Mus musculus with 30 samples.

Results

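Gene expression in the mHypoA-2/12 cell line was compared between 24 h and 6 h of exposure to 3 µM cannabidiol (CBD), the non-intoxicating cannabinoid of Cannabis. The comparison used all 6 libraries labelled with this dose, out of 30 in the series: A4, A5 and A6 after 6 h and A16, A17 and A18 after 24 h. The line is an adult mouse hypothalamic line, immortalized with a temperature-sensitive SV40 large T antigen, and every group was grown in DMEM GlutaMAX with the same vehicle, 0.1% DMSO. The other 24 libraries received vehicle alone or CBD at 0.325, 0.75 or 1.5 µM for the same times, with 3 libraries per group. QuantSeq, the method used, reads polyadenylated transcripts at their 3′ end, so that a read marks the end of a transcript and counts are not divided by gene length. No label states that the libraries of a group came from separate cultures, and p-values therefore measure the spread between libraries, which may be technical. The hours in culture, the harvest and the exposure all changed together between 6 h and 24 h and cannot be told apart within this dose, and the vehicle and lower-dose groups are set beside it for that reason.

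CBD is a lipophilic compound that has been described to act on many proteins, among them ion channels of the TRP family, nuclear receptors and fatty acid-binding proteins, and it binds the classical cannabinoid receptors only weakly. The hypothalamus controls feeding, temperature and hormone release through neurons that express peptides such as those of Pomc and Agrp. Cells kept in culture without a change of medium draw down nutrients and growth factors and deposit matrix, and the first hours after medium is replaced are a time of immediate-early gene induction, so that a later time differs from an earlier time in any culture.

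Neuronal markers were detected in part. The cytoskeletal genes Tubb3 (35.5 to 61.9 CPM over the 6 libraries), Map2 (15.6 to 35.7 CPM) and Nefl (12.2 to 21.02 CPM) and the growth cone gene Stmn2 (6.87 to 13.9 CPM) had reads in every library, whereas Snap25, a protein of the synaptic vesicle fusion machinery, and the peptide genes Agrp and Pomc had 0 reads in all 6. The 11 neuronal markers listed summed to 84.5 to 122 CPM (counts scaled to the same total on genes in every library, with TMM factors) at 6 h and 96.4 to 123 CPM at 24 h, and none of the 5 that were tested passed the threshold. Mesenchymal markers summed to 6678 to 6899 CPM at 6 h and 5937 to 6699 CPM at 24 h, led by Col1a1 and Vim, and none of those 6 passed either. Among the astrocyte markers Gfap and Aqp4 were at 0 in all 6 libraries, and the connexin gene Gja1 fell from a mean of 58.4 CPM to 29.5 CPM (log2 fold change −0.99, edgeR FDR = 0.00366), while Slc1a3 (0.58) and S100b (1.196) had values of the other sign and did not pass. The astrocyte list, most of which was Gja1, summed to 59.4 to 67.7 CPM at 6 h and 27.9 to 45.3 CPM at 24 h. Fewer cells with a transcript and less of it per cell cannot be told apart in these bulk libraries. The 5 microglial markers summed to 23.5 to 33.3 CPM over the 6 libraries, and those of oligodendrocytes and endothelium to at most 2.94 CPM.

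Library A16 stood apart from A17 and A18 in measures of the whole library. Reads counted on genes were 2287249 to 3239116 in the 6 h libraries and 2304492 to 2518615 in the 24 h libraries, and the share of uniquely mapped reads outside genes was 19.4% to 19.5% at 6 h and 20.8% to 21.7% at 24 h. A16 had 0.251 alignments to several places per unique read, within the range of the 15 libraries of 6 h in the series (0.230 to 0.277) and above the other 14 libraries of 24 h (0.212 to 0.228). Its Euclidean distance in log2 CPM was 83.3 to A17 and 76.4 to A18, whereas A17 and A18 were 65.6 apart, the 6 h libraries were 60.9 to 63.7 apart, and libraries of different times were 80.4 to 90.0 apart. Values without A16 are given beside the genes and lists it moved, and the cause of its position was not tested.

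**Figure D1:**
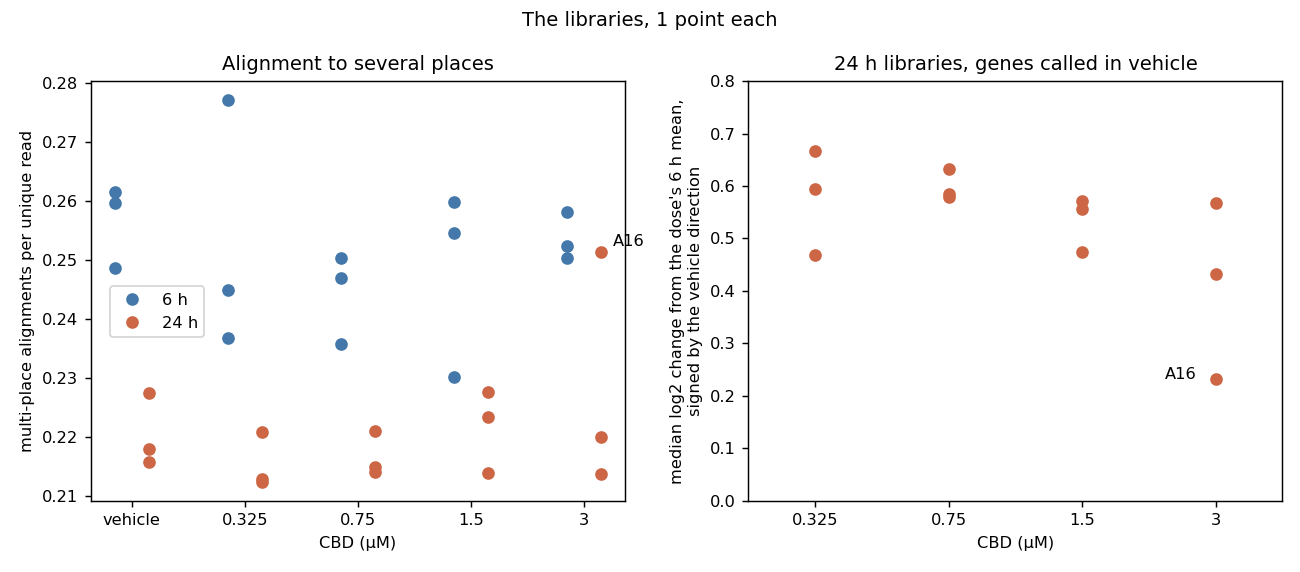
Left, alignments to several places per uniquely mapped read in all 30 libraries by dose, with 6 h in blue and 24 h in orange. Right, for the 12 CBD libraries of 24 h, the median log2 change from the 6 h mean of the same dose over the 3411 genes called in vehicle, signed by the vehicle direction. A16 lies at 0.251 among the 6 h libraries on the left and lowest, at 0.233, on the right.

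At 3 µM, 2129 of the 12790 genes tested (16.6%) differed between 24 h and 6 h at an FDR below 0.1 (edgeR quasi-likelihood test, Benjamini-Hochberg adjustment over all genes tested; genes past this threshold are called here). Of these, 1126 genes (8.8% of those tested) were higher and 1003 (7.84%) were lower at 24 h, while the median log2 fold change over all genes was −0.01. The change was at least 2-fold for 368 of the higher and 278 of the lower genes, and the median absolute log2 fold change of the called genes was 0.76. Most called genes, 1898, were protein coding, and 117 were processed pseudogenes, whose reads are easily confused with those of their parent genes. For 1976 of the called genes the values of the groups did not overlap, while of all genes tested 15.8% had every 24 h library above and 14.3% every 24 h library below those of 6 h. Without A16 the count was 2051, of which 1554 were among the 2129 with the same direction, and without A5 it was 1356.

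Among the genes that rose most were an enzyme of retinoic acid breakdown, secreted signals and a transporter. Cyp26b1 (ENSMUSG00000063415, chromosome 6), the enzyme that clears retinoic acid, was at 9.80, 10.9 and 10.3 CPM at 6 h and 64.7, 108 and 69.3 CPM at 24 h, given here and below in the order A4, A5, A6 and A16, A17, A18. Every 24 h library was several times above every 6 h library (log2 fold change 2.97, SE 0.32, FDR = 1.05e-07). Slc24a3 (ENSMUSG00000063873, chromosome 2), a sodium, calcium and potassium exchanger, had the smallest p-value of all genes and was at 35.2, 35.4 and 32.2 CPM at 6 h and 176, 192 and 168 CPM at 24 h (log2 fold change 2.38, SE 0.16, FDR = 2.52e-13). The 3 libraries of each time lay close together. Adm (ENSMUSG00000030790, chromosome 7), the gene of the vasodilator peptide adrenomedullin, was at 33.1, 30.1 and 34.4 CPM at 6 h and 126, 209 and 140.3 CPM at 24 h (log2 fold change 2.28, SE 0.31, FDR = 1.11e-05). Bmp4 (ENSMUSG00000021835, chromosome 14), a bone morphogenetic protein, was at 69.8, 65.02 and 77.8 CPM at 6 h and 219.5, 324 and 274 CPM at 24 h (log2 fold change 1.94, SE 0.31, FDR = 9.15e-05). For both genes A17 was the highest library and A16 the lowest of the 24 h group, without any overlap with 6 h. In vehicle the log2 fold changes were 2.48 for Cyp26b1, 2.55 for Slc24a3, 1.44 for Adm and 1.73 for Bmp4.

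Rspo2, which strengthens Wnt signals, rose with a log2 fold change of 1.90 (FDR = 1.05e-07), and Cdo1, the cysteine dioxygenase that opens taurine synthesis, rose by 2.30 (FDR = 4.61e-07). The glutamate transporter gene Slc1a6 (1.83), the interleukin 11 receptor gene Il11ra1 (1.67), the ephrin receptor gene Ephb3 (1.64), the complement gene C3 (1.62), the myosin light chain kinase gene Mylk (1.55) and the actin-associated LIM protein gene Pdlim2 (1.48) also rose, with FDR values from 1.05e-07 for Pdlim2 to 0.000377 for Ephb3. Elobl, the elongin B-like gene, was at 18.4, 16.6 and 9.88 CPM at 6 h and 105, 97.4 and 71.9 CPM at 24 h (log2 fold change 2.59, SE 0.28, FDR = 1.05e-07), but it is close in sequence to Elob and reads of the pair may not be told apart.

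Among the genes that fell were those of prostaglandin synthesis, a chemokine and surface receptors. Ptgs2 (ENSMUSG00000032487, chromosome 1), which encodes the inducible cyclooxygenase COX-2, was at 58.2, 63.7 and 54.1 CPM at 6 h and 18.2, 25.2 and 23.2 CPM at 24 h (log2 fold change −1.40, SE 0.32, FDR = 0.00404). Ptgs1, which encodes the constitutive cyclooxygenase COX-1, fell as well and was at 165, 158 and 177 CPM at 6 h and 87.3, 86.9 and 104 CPM at 24 h (log2 fold change −0.84, SE 0.14, FDR = 9.68e-05). No value of either gene overlapped between the times, so that the genes of both cyclooxygenases were lower at 24 h. Ctsl (ENSMUSG00000021477, chromosome 13), the lysosomal protease cathepsin L, had the smallest p-value among the genes that fell and was at 516, 512 and 449 CPM at 6 h and 224, 232 and 243 CPM at 24 h (log2 fold change −1.08, SE 0.16, FDR = 3.58e-05). Tm4sf1, a tetraspanin-like surface protein, was at 258, 273 and 280.1 CPM at 6 h and 118, 104 and 134 CPM at 24 h (log2 fold change −1.19, SE 0.18, FDR = 5.65e-05). In vehicle Ptgs2 changed by −2.12, Ptgs1 by −0.45, Ctsl by −0.96 and Tm4sf1 by −0.85 on the log2 scale.

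In several of the leading genes A16 was far below A17 and A18. Sema7a, a membrane-anchored semaphorin, was at 31.5, 27.5 and 45.1 CPM at 6 h and 1.62, 12.2 and 14.5 CPM at 24 h (log2 fold change −1.89, SE 0.38, FDR = 0.000991), and its log2 fold change was −1.37 without A16 (FDR = 0.0066). Ccl2, the monocyte chemokine MCP-1, was at 30, 28.4 and 33.1 CPM at 6 h and 1.62, 17.6 and 12.7 CPM at 24 h (log2 fold change −1.52, SE 0.56, FDR = 0.0687). This call rested on few libraries, since it was lost when any 1 of A16, A18, A4, A5 and A6 was left out, with −0.99 and an FDR of 0.267 without A16. F2r, the thrombin receptor PAR1, was at 121, 139 and 120.3 CPM at 6 h and 23.4, 72.6 and 66.6 CPM at 24 h (log2 fold change −1.23, SE 0.30, FDR = 0.00547), with −0.86 without A16 (FDR = 0.0445). Cstb, the cathepsin inhibitor cystatin B, was at 328, 326 and 368 CPM at 6 h and 61.9, 164 and 132 CPM at 24 h (log2 fold change −1.51, SE 0.27, FDR = 0.000244). Ptx3, a soluble pattern recognition protein, fell by 1.27 on the log2 scale (FDR = 0.0175) and was not called without A16 (−0.94, FDR = 0.102). The opposite held for Pfn1, the actin-binding profilin 1, at 178, 169 and 174 CPM at 6 h and 118, 32.7 and 32.9 CPM at 24 h (log2 fold change −1.49, SE 0.34, FDR = 0.00333), where A16 was the nearest to the 6 h libraries and the log2 fold change without it was −2.39.

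**Figure D2:**
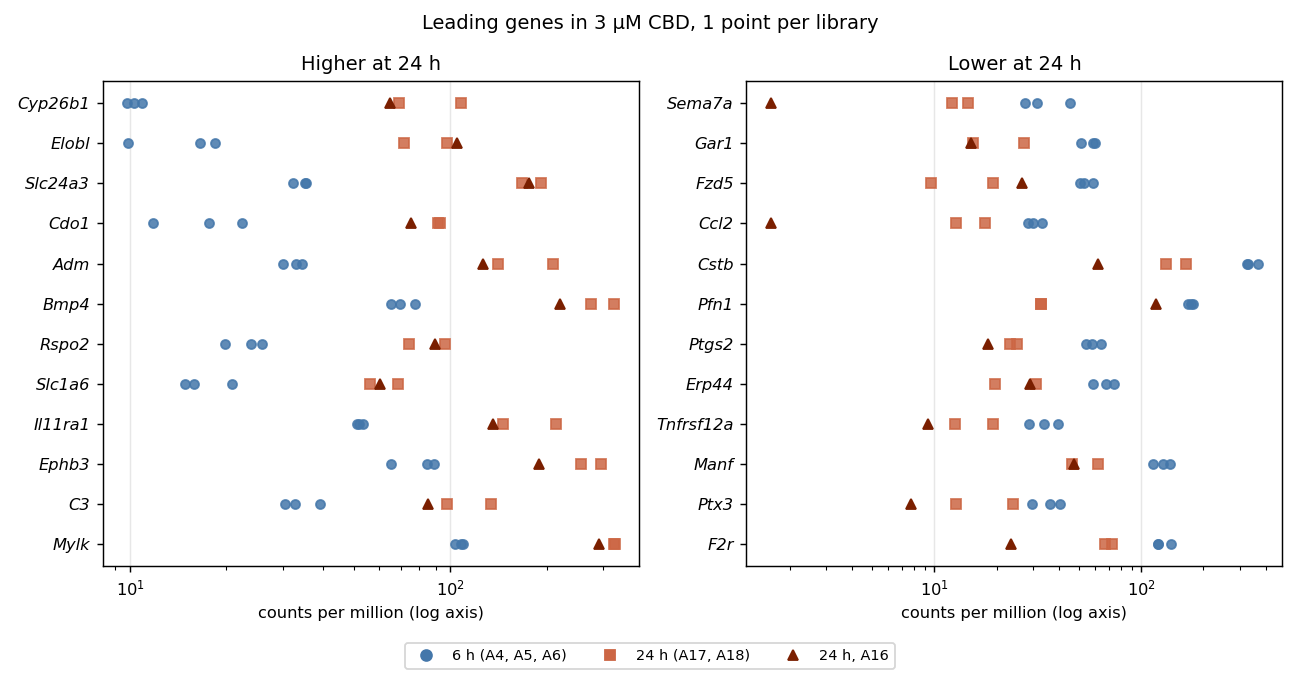
CPM on a log axis of the 12 genes with the highest and the 12 with the lowest log2 fold change among called protein-coding genes at 20 CPM or more without overlap. Blue circles are 6 h libraries, orange squares A17 and A18, and dark triangles A16. All 24 h points lie beyond all 6 h points, from Cyp26b1 (2.97) to Sema7a (−1.89), and A16 is at 1.62 CPM for Sema7a and Ccl2.

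The remaining leading genes that fell were Gar1 (−1.56), a protein of the H/ACA particles that modify ribosomal RNA, the Wnt receptor gene Fzd5 (−1.54), the endoplasmic reticulum protein gene Erp44 (−1.32), the TWEAK receptor gene Tnfrsf12a (−1.31), Manf (−1.28), the collagen VI chain gene Col6a3 (−0.90) and the esterase gene Esd (−0.89). Of the 30 leading genes in both directions, 27 kept their call under all the alternatives run, the exceptions being Ccl2, F2r and Ptx3. All 30 had the same sign of change in vehicle, where 28 were called, and all 30 had it in the lower doses.

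Genes of protein folding in the endoplasmic reticulum were lower at 24 h. The chaperones and disulfide isomerases of this compartment are induced by the unfolded protein response when secretory load exceeds folding capacity. Of the 22 members tested, 8 fell (36.4%, against 7.84% of all genes), the other 14 did not pass, and the median log2 fold change was −0.43. Manf, a secreted neurotrophic factor kept in the endoplasmic reticulum by binding Hspa5, was at 138, 114 and 127 CPM at 6 h and 47.3, 62.1 and 46.5 CPM at 24 h (log2 fold change −1.28, SE 0.22, FDR = 0.000238). Hyou1, an HSP70-like chaperone, was at 35.5, 36.7 and 43.8 CPM at 6 h and 15.4, 20.98 and 20.2 CPM at 24 h (log2 fold change −1.03, SE 0.23, FDR = 0.00245). The groups were separated for both, with the highest 24 h values at 62.1 CPM for Manf and 20.98 CPM for Hyou1. P4hb, the main protein disulfide isomerase, was at 605, 649 and 646 CPM at 6 h and 447, 418 and 421 CPM at 24 h (log2 fold change −0.56, SE 0.11, FDR = 0.00123), and the isomerase gene Pdia6 changed by −0.52 (FDR = 0.00903). The co-chaperone genes Dnajc3 (−0.42) and Dnajb11 (−0.45) and the degradation gene Edem1 (−0.85) fell as well, the last 2 with calls lost without A16, A17 or A6 and, for Dnajb11, A4.

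Hspa5, the gene of the central chaperone BiP, was near its threshold at 4752, 5004 and 4992 CPM at 6 h and 4188, 3337 and 4000.0 CPM at 24 h (log2 fold change −0.36, SE 0.14, FDR = 0.0922) and lost its call when any 1 of A17, A18, A4, A5 and A6 was left out. Xbp1, whose spliced form drives this response, was at 38.6, 36.2 and 44.7 CPM at 6 h and 27.5, 15.9 and 32.4 CPM at 24 h and did not pass (−0.65, FDR = 0.127). With 1 library left out, 5 to 9 members were lower, with 5 without A6 and 7 without A16, and the median stayed between −0.46 and −0.39. The same list had a median of −0.22 in vehicle and of −0.27, −0.39 and −0.31 at 0.325, 0.75 and 1.5 µM. No member was among the genes whose time change differed from that in vehicle (0.109% of all genes) or in the lower doses (2.39%).

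The promoters of P4hb and Pdia6 are shown because they are the called members of this list with the smallest p-values whose promoter in RefSeq (GRCm38.p6, 250 bases before to 50 after the start) holds the letters CCACG, the core of the unfolded protein response element, on either strand (reverse complement CGTGG). Matches are in capitals, each sequence runs 5′ to 3′ on the strand of its gene, and the windows are chr11:120573204-120573503, minus strand, for P4hb and chr12:17266339-17266638, plus strand, for Pdia6.
P4hb: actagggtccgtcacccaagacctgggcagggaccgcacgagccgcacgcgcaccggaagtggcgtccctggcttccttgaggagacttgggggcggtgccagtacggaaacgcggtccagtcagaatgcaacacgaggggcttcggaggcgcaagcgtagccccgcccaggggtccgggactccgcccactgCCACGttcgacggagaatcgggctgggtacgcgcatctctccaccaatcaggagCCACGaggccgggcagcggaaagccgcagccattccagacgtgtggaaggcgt
Pdia6: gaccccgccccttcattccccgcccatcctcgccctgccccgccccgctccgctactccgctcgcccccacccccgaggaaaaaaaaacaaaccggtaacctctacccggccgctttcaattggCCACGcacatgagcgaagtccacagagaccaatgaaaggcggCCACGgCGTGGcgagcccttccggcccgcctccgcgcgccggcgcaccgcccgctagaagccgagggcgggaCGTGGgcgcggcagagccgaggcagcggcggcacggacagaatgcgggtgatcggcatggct
P4hb held 2 matches and Pdia6 held 4. All 6 called members with a promoter in the table held a match, as did 17 of the 19 members matched, but so did 35.5% of the 27025 genes in the table. A match describes the letters of the window, not a bound site.

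Genes of the integrated stress response, the ATF4-driven program of amino acid synthesis and uptake, were also lower. Of 30 members tested, 9 fell (30%, against 7.84% of all genes) and 1 rose, with a median log2 fold change of −0.32. Asns (ENSMUSG00000029752, chromosome 6), asparagine synthetase, was at 125, 110.4 and 113 CPM at 6 h and 97.03, 63.8 and 66.2 CPM at 24 h (log2 fold change −0.62, SE 0.15, FDR = 0.00467). Psat1, an enzyme of serine synthesis, was at 296, 289.8 and 307 CPM at 6 h and 231, 174 and 218 CPM at 24 h (log2 fold change −0.52, SE 0.13, FDR = 0.00645). In both genes A16 was the 24 h library nearest to the 6 h values, without overlap. Ddit4, a stress-induced inhibitor of mTORC1, was at 75.9, 88.6 and 67.01 CPM at 6 h and 50.5, 30.2 and 34.2 CPM at 24 h (log2 fold change −1.01, SE 0.25, FDR = 0.00661), and Eif4ebp1, the translation repressor 4E-BP1, was at 344, 369.6 and 384 CPM at 6 h and 302, 204 and 214 CPM at 24 h (log2 fold change −0.61, SE 0.16, FDR = 0.0111). The serine and one-carbon genes Phgdh (−0.90) and Shmt2 (−0.58), the amino acid transporter genes Slc7a5 (−0.86) and Slc7a11 (−1.38) and the pseudokinase gene Trib3 (−0.63) fell too. These 5 calls were less firm, being kept in 3 of 6 omissions of 1 library for Phgdh and Slc7a5, 4 for Shmt2 (−0.89 without A16), 2 for Slc7a11 (−0.85 without A16, FDR = 0.29) and 1 for Trib3.

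The member that rose was Nupr1, a stress-induced nuclear protein, at 9.80, 15.7 and 12.5 CPM at 6 h and 23.4, 25.6 and 23.2 CPM at 24 h (log2 fold change 0.94, SE 0.31, FDR = 0.0408), with a call lost without A17, A4 or A6 and a log2 fold change of −0.58 in vehicle. Atf4 itself was at 431, 452 and 407 CPM at 6 h and 483, 426 and 490.5 CPM at 24 h, which overlapped between the times (log2 fold change 0.12, SE 0.15, FDR = 0.688), and Ddit3, which encodes CHOP, did not pass (0.47, FDR = 0.332). Between 5 and 10 members were lower with 1 library left out, with 10 without A16 and fewer by more than 1.5 times without A18 or A6. In vehicle the median of the list was −0.76. No member was among the genes whose change differed from vehicle, and 2 of the 30 were among those that differed from the lower doses (2.39% of all genes).

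The cytosolic aminoacyl-tRNA synthetases, which load tRNAs and include targets of ATF4, followed in part. Of 20 tested, 5 fell (25%, against 7.84% of all genes) and the other 15 did not pass, with a median of −0.13. Lars, leucyl-tRNA synthetase, was at 216, 249 and 216 CPM at 6 h and 150.4, 138 and 143 CPM at 24 h (log2 fold change −0.66, SE 0.14, FDR = 0.00161). Iars, for isoleucine, was at 52.04, 52.4 and 57.99 CPM at 6 h and 33.6, 26.9 and 32.9 CPM at 24 h (log2 fold change −0.80, SE 0.19, FDR = 0.00423). The genes Kars (−0.63), Tars (−0.55) and Rars (−0.41) fell as well, with all 24 h values of the 5 genes below those of 6 h, but Rars was called only when A16 was the library left out. By contrast Gars, for glycine, was at 229, 230.4 and 254 CPM at 6 h and 232, 235 and 252 CPM at 24 h (FDR = 0.969). Sars, for serine, was at 155, 165 and 141 CPM at 6 h and 180.3, 141 and 176 CPM at 24 h (0.11, FDR = 0.756). Their values overlapped between the times, while the vehicle changes were −0.55 for Gars and −0.57 for Sars. The list's median was −0.51 in vehicle and −0.28 at 3 µM without A16.

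The promoters of Asns and Slc7a11 are shown for the amino acid response letters TGATGNAA (reverse complement TTNCATCA), the sequence at which ATF4 and C/EBP factors are known to bind as a pair. Matches are in capitals, in the windows chr6:7693160-7693459, minus strand, for Asns and chr3:50443564-50443863, minus strand, for Slc7a11.
Asns: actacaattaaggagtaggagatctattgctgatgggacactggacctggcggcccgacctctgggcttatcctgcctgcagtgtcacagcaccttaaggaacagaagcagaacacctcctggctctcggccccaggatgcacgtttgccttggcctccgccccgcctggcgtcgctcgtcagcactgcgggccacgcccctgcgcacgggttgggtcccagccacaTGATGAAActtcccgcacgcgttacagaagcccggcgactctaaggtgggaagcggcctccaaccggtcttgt
Slc7a11: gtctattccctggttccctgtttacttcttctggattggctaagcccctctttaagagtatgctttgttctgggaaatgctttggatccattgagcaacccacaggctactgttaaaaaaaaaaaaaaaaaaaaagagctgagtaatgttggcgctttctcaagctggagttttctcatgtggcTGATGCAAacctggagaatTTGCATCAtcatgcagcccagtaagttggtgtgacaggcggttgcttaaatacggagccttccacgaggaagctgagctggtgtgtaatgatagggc
Asns held 1 match and Slc7a11 held 2. Of the 7 called lower members of the stress response list with a promoter in the table, 3 held a match (with Trib3), and of the 25 members matched 8 did, where 4.51% of all genes in the table held one.

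A part of the interferon-stimulated genes rose. These genes are induced by type I interferon and can also be held at a low level without added interferon. Of 36 tested, 9 rose (25%, against 8.8% of all genes) and 1 fell, and the median log2 fold change was 0.35. Ifit3 (ENSMUSG00000074896, chromosome 19), an RNA-binding antiviral protein, was at 4.90, 4.80 and 5.58 CPM at 6 h and 22.2, 14.7 and 12.7 CPM at 24 h (log2 fold change 1.70, SE 0.43, FDR = 0.0086). Ifit1, of the same family, was at 5.82, 8.73 and 1.72 CPM at 6 h and 19.4, 11.3 and 14.5 CPM at 24 h (log2 fold change 1.47, SE 0.42, FDR = 0.0194), and lost its call without A6. A16 was the highest library for both. Ifi35 was at 13.2, 20.1 and 12.5 CPM at 6 h and 29.1, 27.3 and 25.9 CPM at 24 h (log2 fold change 0.86, SE 0.24, FDR = 0.0175) and H2-K1, a classical class I histocompatibility gene, at 55.4, 49.3 and 55.4 CPM at 6 h and 75.6, 90.2 and 86.8 CPM at 24 h (log2 fold change 0.65, SE 0.19, FDR = 0.0237). The transcription factor genes Irf9 (0.76) and Irf7 (1.33) and Ifi27, Oasl2 and Ifitm3 made up the remainder that rose. The calls of Irf9 and Irf7 were lost without A16 (FDR = 0.131 and 0.157), and those of Ifi27, Oasl2 and Ifitm3 were lost in 2 to 3 of the 6 omissions of 1 library.

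H2-D1, the other classical class I gene in the list, fell and was at 188, 198 and 174 CPM at 6 h and 78.4, 146 and 116 CPM at 24 h (log2 fold change −0.72, SE 0.20, FDR = 0.016), but was not called without A16 (−0.50, FDR = 0.113). Isg15 was at 4.90, 6.98 and 7.30 CPM at 6 h and 6.87, 4.62 and 7.45 CPM at 24 h and did not pass. Without 1 library 5 to 8 members rose, with 7 without A16 and 5 without A6, and the median was between 0.26 and 0.42. The list's median was 0.03 in vehicle and 0.60, 0.37 and 0.34 at 0.325, 0.75 and 1.5 µM. No member was among the genes whose change differed from vehicle, and 1 was among those that differed from the lower doses.

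The promoters of Ifit3 and Ifit1, on neighbouring stretches of chromosome 19, are shown for the letters TTTCNNTTT (reverse complement AAANNGAAA), the core of the interferon-stimulated response element. Matches are in capitals, in the windows chr19:34583279-34583578, plus strand, for Ifit3 and chr19:34640639-34640938, plus strand, for Ifit1.
Ifit3: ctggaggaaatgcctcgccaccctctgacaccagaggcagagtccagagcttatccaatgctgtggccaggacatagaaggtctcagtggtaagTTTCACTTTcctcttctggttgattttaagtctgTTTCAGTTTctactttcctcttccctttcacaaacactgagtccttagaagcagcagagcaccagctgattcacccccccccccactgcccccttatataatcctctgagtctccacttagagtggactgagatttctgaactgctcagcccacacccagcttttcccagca
Ifit1: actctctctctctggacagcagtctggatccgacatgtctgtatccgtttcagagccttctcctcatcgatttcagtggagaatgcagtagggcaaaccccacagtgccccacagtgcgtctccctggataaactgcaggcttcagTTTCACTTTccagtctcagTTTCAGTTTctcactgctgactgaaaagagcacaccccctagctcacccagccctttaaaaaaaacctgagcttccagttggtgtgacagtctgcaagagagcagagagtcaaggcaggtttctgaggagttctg
Both promoters held 2 matches. With Ifitm3, 3 of the 8 called higher members that have a promoter in the table held a match, as did 18 of the 29 members matched and 12.1% of all genes there.

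**Figure D3:**
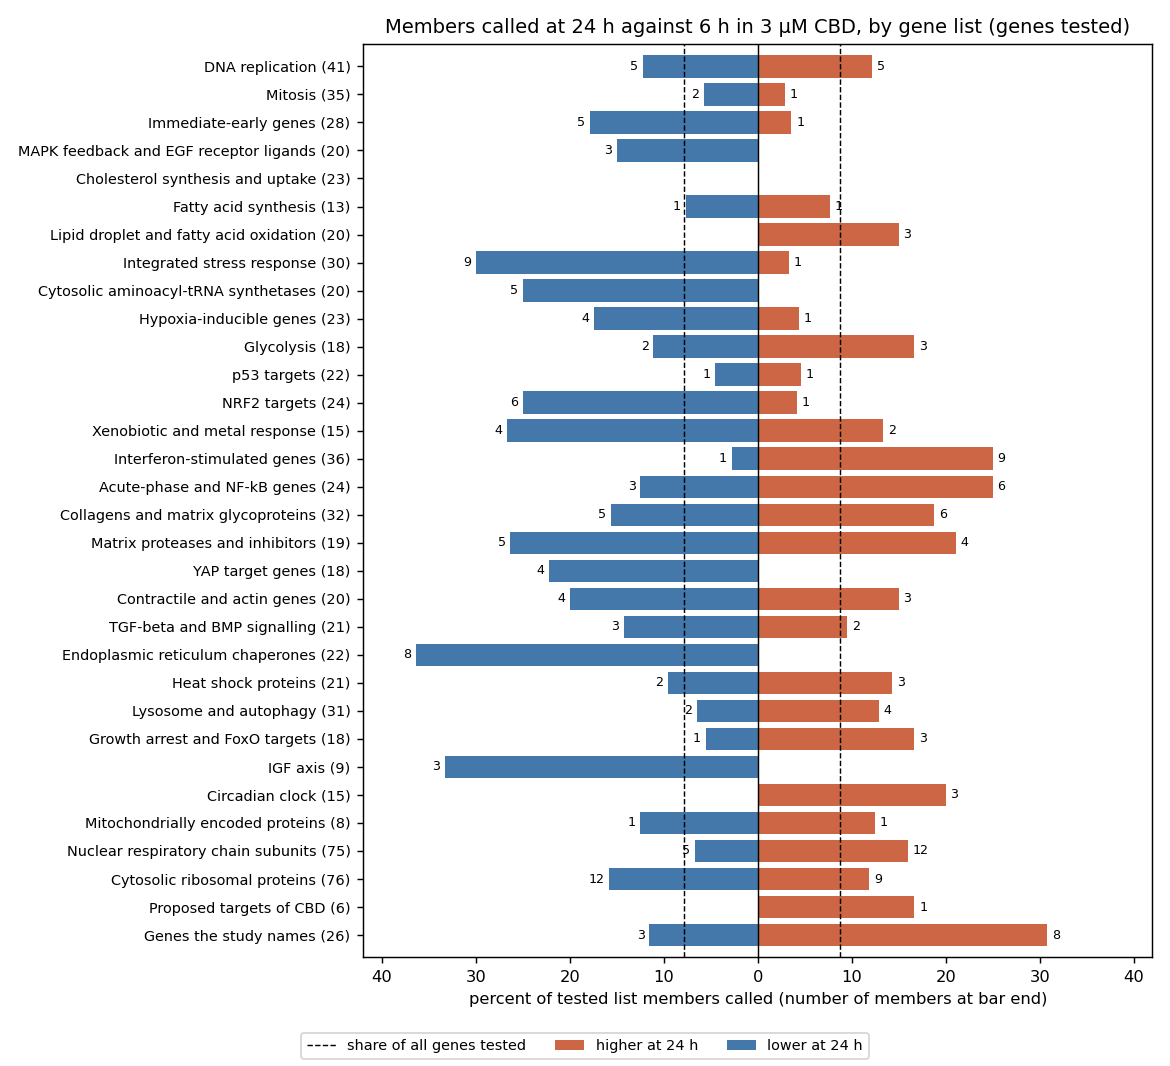
Percent of the tested members of 32 gene lists called higher (orange, right) or lower (blue, left) at 24 h against 6 h in 3 µM CBD, with the number of called members at each bar and the number tested in parentheses. Dashed lines mark the shares of all genes, 8.8% higher and 7.84% lower. The longest bar on the left is that of the 8 lower chaperones (36.4%). On the right the genes the study names come first (30.8%). The 9 higher interferon-stimulated genes follow (25%), a share equalled by the acute-phase genes.

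Acute-phase and NF-κB genes moved in both directions. Of 24 tested, 6 rose (25%, against 8.8% of all genes) and 3 fell (12.5%, against 7.84%), with a median of 0.04. Cxcl12, a chemokine that guides stem and immune cells, was at 724, 683 and 587 CPM at 6 h and 1183, 1713 and 1337 CPM at 24 h (log2 fold change 1.08, SE 0.15, FDR = 1.43e-05). Saa3, a serum amyloid gene, was at 413, 361 and 316 CPM at 6 h and 493, 785 and 619 CPM at 24 h (log2 fold change 0.80, SE 0.20, FDR = 0.00826), and Lcn2, the iron-trapping lipocalin 2, at 38.9, 34.04 and 27.5 CPM at 6 h and 62.7, 70.9 and 50.9 CPM at 24 h (log2 fold change 0.87, SE 0.21, FDR = 0.00568). In each of the 3 the groups were separated. Il1rn, the natural antagonist of the interleukin 1 receptor, rose by 0.62 on the log2 scale (FDR = 0.0169), but not without A17. Those that fell were Ptgs2, Ptx3 and Ccl2, and only Ptgs2 was left among them without A16.

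Matrix genes also moved in both directions. Of 32 collagens and matrix glycoproteins tested, 6 rose (18.75%, against 8.8% of all genes) and 5 fell (15.6%, against 7.84%). The median was −0.08 (0.09 without A16), against 0.32 in vehicle and 0.11 in the lower doses. The abundant Col1a1 and Fn1 did not pass (−0.12 and −0.03). Tnc, the tenascin C of wounds and development, was at 263, 279.7 and 285 CPM at 6 h and 62.7, 144 and 169.7 CPM at 24 h (log2 fold change −1.14, SE 0.20, FDR = 0.000244), with −0.80 without A16. Bgn, the proteoglycan biglycan, was at 1331, 1316 and 1325 CPM at 6 h and 1821, 2413 and 2693 CPM at 24 h (log2 fold change 0.80, SE 0.16, FDR = 0.00129). Ltbp2, a microfibril protein, was at 95.8, 106 and 112 CPM at 6 h and 164, 206 and 185 CPM at 24 h (log2 fold change 0.82, SE 0.17, FDR = 0.00122). The number that fell was 2 without A16, where 6 rose, and it moved by more than 1.5 times without A5 or A6 as well. The number that rose was 3 without A6.

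Among 19 matrix proteases and inhibitors, 4 rose (21.1%, against 8.8% of all genes) and 5 fell (26.3%, against 7.84%, and 3 without A16). The median was 0.01 (0.14 without A16), against 0.32 in vehicle and 0.08 in the lower doses. Timp1, a secreted inhibitor of metalloproteinases, was at 1175, 1020.0 and 1082 CPM at 6 h and 350.5, 566 and 779.9 CPM at 24 h (log2 fold change −0.95, SE 0.17, FDR = 0.000238), and Timp3, an inhibitor bound to the matrix, at 95.8, 112 and 95.8 CPM at 6 h and 27.1, 60.01 and 71.02 CPM at 24 h (log2 fold change −0.94, SE 0.20, FDR = 0.00226). A16 was the lowest library for both, and without it Timp3 was at −0.62 (FDR = 0.0243). The aggrecan-cleaving proteases Adamts1, at 138, 124 and 94.5 CPM at 6 h and 199.7, 398 and 245 CPM at 24 h, and Adamts5, at 19.3, 17.9 and 15.5 CPM at 6 h and 37.2, 46.2 and 40.8 CPM at 24 h, rose (1.24 and 1.23, FDR = 0.000124 and 0.00227). Mmp3, stromelysin 1, was spread from 483 to 1083 CPM at 24 h around 6 h values of 771 to 864 CPM and did not pass (FDR = 0.994).

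Of 20 contractile and actin genes 3 rose (15%, against 8.8% of all genes) and 4 fell (20%, against 7.84%), with a median of −0.11. Acta2, smooth muscle actin, was at 3136, 3057 and 2764 CPM at 6 h and 995, 2023 and 2130.0 CPM at 24 h (log2 fold change −0.80, SE 0.18, FDR = 0.00279), and −0.52 without A16 (FDR = 0.0254). Actn1, the actin crosslinker α-actinin 1, was at 862, 841 and 844 CPM at 6 h and 518, 555 and 583 CPM at 24 h (log2 fold change −0.62, SE 0.11, FDR = 0.000277). Mylk, above, and Lmod1, the actin nucleator leiomodin 1 (1.50, FDR = 0.00295), rose. Of 18 targets of the mechanically regulated factor YAP 4 fell (22.2%), but 1 without A16. The number also moved by more than 1.5 times without A18, A4, A5 or A6. Ccn2, the connective tissue growth factor, was at 77.8, 100.4 and 97.1 CPM at 6 h and 21.8, 72.2 and 34.2 CPM at 24 h (log2 fold change −1.10, SE 0.34, FDR = 0.029) and was not called without A16 or A18, and Ccn1 did not pass (−0.16). Of 21 genes of TGF-β and BMP signalling 2 rose (9.52%, against 8.8% of all genes) and 3 fell (14.3%, against 7.84%, and 1 to 2 with 1 library left out). Bmp4 and Tgfb2 (1.46, FDR = 0.000802) rose. Inhba, the activin chain, was at 405, 410.2 and 407 CPM at 6 h and 373, 179 and 218 CPM at 24 h (log2 fold change −0.66, SE 0.18, FDR = 0.0127), with A16 still near 6 h, −1.03 without A16 and a call that was lost without A17. Skil fell as well (−0.71), with a call lost without A17, A18 or A5.

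Among the genes of growth arrest and of autophagy that rose were those of a cell cycle inhibitor and of autophagosome proteins. Cdkn1b (ENSMUSG00000003031, chromosome 6), the cell cycle inhibitor p27, was at 191, 172 and 173 CPM at 6 h and 297, 466 and 292 CPM at 24 h (log2 fold change 0.98, SE 0.19, FDR = 0.000587). Pik3ip1, an inhibitor of PI3 kinase, was at 11.9, 14.4 and 7.30 CPM at 6 h and 23.4, 33.1 and 21.04 CPM at 24 h (log2 fold change 1.2, SE 0.27, FDR = 0.00279). They were 2 of the 3 among 18 growth arrest and FoxO targets that rose (16.7%, against 8.8% of all genes), the third being Foxo3 (0.44), with a call lost without A17, A18 or A6, and Klf9 fell (−0.53) but not without A16. Map1lc3b, which encodes LC3B of the autophagosome membrane, was at 208, 226 and 191 CPM at 6 h and 408, 511 and 374 CPM at 24 h (log2 fold change 1.05, SE 0.13, FDR = 2.76e-06), and its relative Gabarapl1 at 69.5, 84.7 and 84.6 CPM at 6 h and 154, 179 and 169 CPM at 24 h (log2 fold change 1.08, SE 0.14, FDR = 2.55e-06). Both were separated without overlap and were among the 4 of 31 lysosome and autophagy genes that rose (12.9%; 6 rose without A16 and 2 without A18), with 2 that fell (6.45%, and 1 without A16, A4, A5 or A6). The growth arrest list had a median of 0.12 at 3 µM (0.27 without A16), 0.39 in vehicle and 0.33 in the lower doses. For the lysosome and autophagy list the medians were 0.08 (0.11 without A16), 0.24 and 0.22 in the same order.

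Few mitosis genes passed the test, and more of DNA replication did. Of 35 mitosis genes 1 rose and 2 fell (median −0.05), which is 2.86% and 5.71% against 8.8% and 7.84% of all genes, and Mki67 was at 53.9, 37.1 and 38.7 CPM at 6 h and 44.9, 44.9 and 31.6 CPM at 24 h (−0.10, FDR = 0.801). Of 41 genes of DNA replication 5 rose and 5 fell, 12.2% in each direction, but with 1 library left out 1 to 4 rose and 3 to 5 fell, the counts moving by more than 1.5 times without A17, A5 or A6 and, for those that rose, A18. Ccne1, the cyclin E1 of S-phase entry, was at 51.7, 51.1 and 48.97 CPM at 6 h and 20.6, 27.7 and 27.6 CPM at 24 h (log2 fold change −1.001, SE 0.21, FDR = 0.00186), and Lig1, the ligase of Okazaki fragments, at 730.1, 696 and 666 CPM at 6 h and 1174, 927 and 1174 CPM at 24 h (log2 fold change 0.65, SE 0.16, FDR = 0.00617). Plk1, a kinase of mitotic entry, fell by 0.75 on the log2 scale (FDR = 0.00323).

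A total of 3 genes of the circadian clock list rose (20% of those tested, against 8.8% of all genes). The list's median log2 fold change was 0.13 at 3 µM, 0.38 in vehicle and 0.42 in the lower doses. Tef, a PAR bZIP factor driven by the clock, was at 65.2, 68.1 and 75.6 CPM at 6 h and 148, 180.0 and 165 CPM at 24 h (log2 fold change 1.24, SE 0.18, FDR = 1.87e-05). Nr1d2, encoding REV-ERBβ, was at 44.4, 41.9 and 29.6 CPM at 6 h and 73.98, 94 and 62.7 CPM at 24 h (log2 fold change 0.99, SE 0.19, FDR = 0.000915). Per3 was at 19.6, 17.9 and 21.1 CPM at 6 h and 58.6, 42.8 and 31.1 CPM at 24 h (log2 fold change 1.18, SE 0.24, FDR = 0.0014). All were separated, whereas Per2 (−0.68, FDR = 0.373) and Nr1d1 (0.44, FDR = 0.43) did not pass, and Tef, Nr1d2 and Per3 were the only ones called among the 15 clock genes tested.

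Immediate-early genes, which respond to serum and calcium within minutes, were lower in part. Of 28 tested 5 fell (17.9%, against 7.84% of all genes) and 1 rose (3.57%, against 8.8%). The median was −0.28, against −0.52 in vehicle. Nr4a2, an orphan nuclear receptor, was at 56.3, 55.4 and 52.8 CPM at 6 h and 27.1, 28.96 and 34.6 CPM at 24 h (log2 fold change −0.86, SE 0.19, FDR = 0.0027), and it kept its call with any 1 of the 6 libraries left out. Klf2 (−0.57), Nr4a1 (−1.14) and Klf6 (−0.33), which fell, and Zfp36 (0.92), which rose, did not, so that 1 to 5 fell with 1 library left out. Nr4a1 was at −0.60 without A16 (FDR = 0.299). Fos, at 42.5, 51.5 and 36.1 CPM at 6 h and 45.3, 25.6 and 33.3 CPM at 24 h, and Egr1, at 206, 219.9 and 242 CPM at 6 h and 244, 214 and 173 CPM at 24 h, overlapped between the times (−0.32 and −0.08, FDR = 0.44 and 0.831). Dusp6, the ERK phosphatase, fell by 0.88 on the log2 scale (FDR = 0.0506), a call lost without A16, A18 or A5. It was 1 of the 3 that fell (15%) among 20 genes of MAPK feedback and EGF receptor ligands, with Egfr (−0.76) and Errfi1 (−0.64). None of the 3 was called without A16, where Dusp6 was at −0.56, Egfr at −0.45 and Errfi1 at −0.45 and 1 other member was called. Egfr also lost its call without A4 or A5, and Errfi1 without A17, A4, A5 or A6.

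Among the nuclear subunits of the respiratory chain, 12 of 75 rose (16%, against 8.8% of all genes) and 5 fell (6.67%, against 7.84%). With 1 library left out 8 to 12 rose. Ndufa5, a subunit of complex I, was at 221, 233 and 242 CPM at 6 h and 481, 504 and 450.2 CPM at 24 h (log2 fold change 1.04, SE 0.17, FDR = 0.000136). Ndufb7, also of complex I, was at 157, 149 and 153 CPM at 6 h and 222, 294 and 245 CPM at 24 h (log2 fold change 0.73, SE 0.13, FDR = 0.000321), and Atp5k, a subunit of ATP synthase, at 616, 596 and 605 CPM at 6 h and 974, 953 and 1013 CPM at 24 h (log2 fold change 0.69, SE 0.13, FDR = 0.000364). No library overlapped in the 3 genes. Of the 8 mitochondrially encoded genes, mt-Nd4 rose (0.59, FDR = 0.0147) and mt-Nd1 fell (−0.34, FDR = 0.0382), which is 12.5% in each direction, and the call of mt-Nd1 was lost without A18 or A6.

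In glycolysis 3 of 18 rose (16.7%, against 8.8% of all genes) and 2 fell (11.1%, against 7.84%, and 1 to 3 with 1 library left out). Ldhb, the lactate dehydrogenase subunit of oxidative tissues, was at 34.6, 32.7 and 30.9 CPM at 6 h and 73.2, 73.02 and 62.7 CPM at 24 h (log2 fold change 1.08, SE 0.18, FDR = 0.000158), and Hk2, the inducible hexokinase, at 126, 122 and 141 CPM at 6 h and 65.1, 99.5 and 83.3 CPM at 24 h (log2 fold change −0.65, SE 0.16, FDR = 0.00767). Ldha, the subunit of glycolytic tissues, fell by 0.35 on the log2 scale (FDR = 0.0728) but kept its call only when A16 was the library left out. Among 23 hypoxia-inducible genes Adm rose (4.35%) and 4 fell (17.4%). Among those that fell was the angiogenic factor gene Vegfa, at 64.9, 56.7 and 46.8 CPM at 6 h and 27.9, 27.3 and 36.8 CPM at 24 h (log2 fold change −0.88, SE 0.23, FDR = 0.0109). Of 23 genes of cholesterol synthesis and uptake 0 were called in either direction (1 rose without A16), with Hmgcs1 at −0.23 on the log2 scale. The edgeR test gave 4 of them an unadjusted p below 0.05, and DESeq2 called 0. Of 13 genes of fatty acid synthesis 1 rose, the malic enzyme gene Me1 (0.48), and 1 fell, the desaturase gene Scd2 (−0.39). This is 7.69% in each direction. Me1 lost its call without A17, A4, A5 or A6, and Scd2 kept its call only when A16 was left out (−0.60, FDR = 0.00482).

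Lipid droplet genes Plin2 (0.46) and Plin3 (0.49) and the fatty acid-binding protein gene Fabp5, at 29.4, 24 and 37.4 CPM at 6 h and 55.4, 59.6 and 40.8 CPM at 24 h (log2 fold change 0.78, SE 0.23, FDR = 0.0243), were the members called among 20 of lipid droplets and fatty acid oxidation. These genes were 15% of the list, against 8.8% of all genes that rose. Fabp5 is also a described carrier of CBD in cells, and it was the 1 gene called among the 6 tested of the 19 proposed CBD targets, with a log2 fold change of 0.76 in vehicle. The call of Fabp5 was lost without A17 or A5, that of Plin3 without A18, and that of Plin2 (FDR = 0.0633) without any 1 of A16, A18, A4, A5 and A6. The cannabinoid receptor gene Cnr1 did not reach the level needed for a test.

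Detoxification genes moved in both directions. Of 15 genes of xenobiotic and metal response tested, 4 fell (26.7%, against 7.84% of all genes) and 2 rose (13.3%, against 8.8%). The median was −0.03. Maoa, among those that rose (0.68, edgeR FDR = 0.024), kept its call with any 1 of the 6 libraries left out. Cyp1a1, a monooxygenase induced through the aryl hydrocarbon receptor, had 7, 7 and 9 reads in A4, A5 and A6 and 0 in all 24 h libraries, so that its mean of 3.02 CPM at 6 h was at least 2.32-fold above the level that 3 reads allow in a 24 h library (up to 1.30 CPM; edgeR FDR = 0.00782). Cyp1b1, of the same family, was at 182, 173 and 180.0 CPM at 6 h and 88.1, 139.7 and 131 CPM at 24 h (log2 fold change −0.58, SE 0.18, FDR = 0.027), and was not called without A16 (FDR = 0.176). Metallothionein 2, encoded by Mt2, was at 790.1, 709 and 815 CPM at 6 h and 506, 513 and 642 CPM at 24 h (log2 fold change −0.48, SE 0.13, FDR = 0.0157), while Mt1 was at 1737, 1834 and 1793 CPM at 6 h and 1909, 1780.0 and 1909 CPM at 24 h and did not pass (0.06). Of 24 targets of the oxidative stress factor NRF2 6 fell (25%) and 1 rose (4.17%). With 1 library left out 2 to 5 fell, and 4 without A16. Among those that fell were Txnrd1 (−0.49), Nqo1 (−0.98) and Prdx1 (−0.46). Txnrd1 lost its call without A5, Nqo1 without A18 or A6, and Prdx1 without A16 or A4. Hmox1, heme oxygenase 1, was at 39.8, 22.3 and 30.1 CPM at 6 h and 37.6, 38.2 and 55.2 CPM at 24 h and did not pass (0.49, FDR = 0.227). Heat shock proteins were split, with 3 of 21 higher (14.3%) and the mitochondrial chaperonin genes Hspd1 (−0.46) and Hspe1 (−0.47) lower (9.52%). Hspa8, among those higher (0.59), lost its call without A18 or A6, and the number higher was 0 without A18 and 1 without A6. Of 22 targets of p53, Gdf15 rose (1.04) and Fas fell (−1.28), which is 4.5% in each direction. Neither kept its call under every omission of 1 library.

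Ribosomal protein genes were split, with 9 of 76 higher (11.8%, against 8.8% of all genes) and 12 lower (15.8%, against 7.84%). The counts were 4 and 14 without A16, and with 1 library left out 4 to 9 were higher and 5 to 14 lower, with 5 lower without A18. Rpl26 was at 354, 313 and 394 CPM at 6 h and 696, 794 and 923 CPM at 24 h (log2 fold change 1.19, SE 0.17, FDR = 2.13e-05), and Rpl34 was at 847, 991 and 972 CPM at 6 h and 702, 404 and 421 CPM at 24 h (log2 fold change −0.88, SE 0.18, FDR = 0.00112). Members of this family have many processed pseudogenes, so that reads assigned to single genes are uncertain. For Rpl34 A16 was the 24 h library nearest to the 6 h values, without overlap. In the insulin-like growth factor axis 3 of 9 genes fell (33.3%). They were Igfbp2, at 217, 227 and 239 CPM at 6 h and 201, 75.96 and 99.95 CPM at 24 h (log2 fold change −0.85, SE 0.22, FDR = 0.0107, and −1.36 without A16), Igf1 (−1.13, not called without A16, FDR = 0.168) and Igfbp5 (−1.37, called in 2 of the 6 omissions of 1 library).

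Of 26 genes that the study names as altered by CBD, 8 rose (30.8%, against 8.8% of all genes) and 3 fell (11.5%, against 7.84%) between the times at 3 µM. The number that rose was 4 without A17 or A6, and 2 with alignments to several places as a covariate. They were chosen on libraries that include these 6 and are not independent evidence of a direction. Rgs4, a regulator of G-protein signals, was at 46.8, 37.5 and 40.4 CPM at 6 h and 74.8, 75.1 and 81.98 CPM at 24 h (log2 fold change 0.89, SE 0.16, FDR = 0.000386), and Tmbim6, the Bax inhibitor 1 of the endoplasmic reticulum, was at 162, 192 and 177 CPM at 6 h and 106, 124 and 101 CPM at 24 h (log2 fold change −0.68, SE 0.15, FDR = 0.00281). The groups were separated in both genes.

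The vehicle libraries went through the same hours without CBD, and the time change was tested for a difference from theirs. The vehicle comparison called 3411 genes (26.7%). Of the 2129 genes called at 3 µM, 1961 (92.1%) had the same sign in vehicle, where 70.5% of all genes did. A total of 1173 were called in both in the same direction and 9 in opposite directions, together 55.5% of the calls at 3 µM and 34.7% of those in vehicle. The contrasts of these comparisons share no library, but the gene filter, the scaling and the spread came from the fit of all 30 libraries. The tests against vehicle and against the lower doses below share the 6 libraries of 3 µM with each other. The 3411 genes called in vehicle were chosen on the contrast of the vehicle libraries within the fit of all 30. Over these genes the median change in the vehicle direction was 0.42 on the log2 scale at 3 µM, and 0.59, 0.61 and 0.54 at 0.325, 0.75 and 1.5 µM. By library it was 0.23 in A16, 0.57 in A17 and 0.43 in A18, and 0.47 to 0.67 in the 9 CBD libraries of 24 h at lower doses. Over the 6626 genes called in the lower doses, the median was 0.50 in vehicle and 0.32 at 3 µM.

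**Figure D4:**
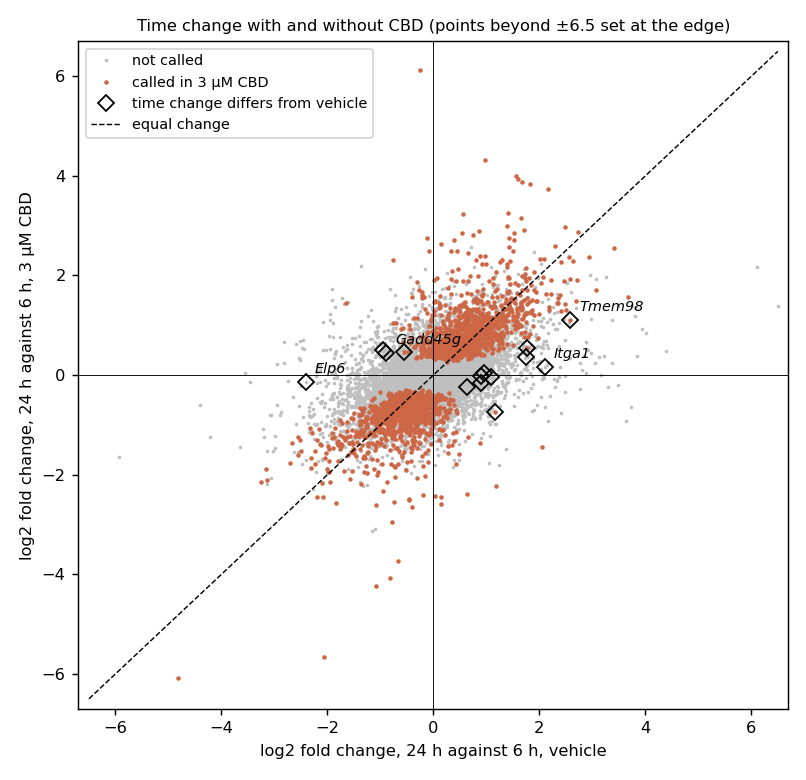
Log2 fold change of 24 h against 6 h in vehicle (horizontal) and in 3 µM CBD (vertical) for the 12790 genes tested, with genes called at 3 µM in orange and the 14 genes whose change differed between the treatments as open diamonds. The dashed line marks equal change. Elp6 lies far to the left at −2.41 in vehicle and −0.14 in 3 µM CBD.

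Tested gene by gene, the time change at 3 µM differed from that in vehicle for 14 genes (0.109% of 12790), 4 with a higher (0.0313%) and 10 with a lower value (0.0782%) at 3 µM. Elp6 (ENSMUSG00000054836, chromosome 9), a subunit of the Elongator complex that modifies tRNA wobble bases, was at 181, 169 and 125 CPM at 6 h and 27.5, 27.5 and 33.7 CPM at 24 h in vehicle. In 3 µM CBD it was at 126, 133 and 109 CPM at 6 h and 172, 64.2 and 97.3 CPM at 24 h, with A16 above every 6 h library (log2 fold change −0.14, and −0.59 without A16, FDR = 0.0448). The difference of the log2 changes was 2.27 (SE 0.31, FDR = 9.71e-05), and without A16 it was 1.81 (FDR = 0.000524). Elp6 was called in all 12 fits that left out 1 of the 12 libraries. The lower doses were unlike each other for Elp6. Its mean was 101.6 CPM at 6 h and 77.4 CPM at 24 h at 1.5 µM, and 115.6 and 75.9 CPM at 0.75 µM. At 0.325 µM it was 123.9 and 26.4 CPM. The time change at 3 µM minus that of the lower doses together was 0.94 (edgeR FDR = 0.074).

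The other higher genes were Gadd45g, a stress-induced growth arrest gene (1.33, FDR = 0.0711), Plin2 (1.02, FDR = 0.0761) and ENSMUSG00000119584, without a symbol in the annotation used (1.46, FDR = 0.0711). Gadd45g was at 60.6, 61.9 and 120.5 CPM in vehicle at 6 h and at 36.8, 44.8 and 53.2 CPM at 24 h, against 41.9, 44.1 and 41.7 CPM at 6 h and 50.9, 64.6 and 58.3 CPM at 24 h in 3 µM CBD. Plin2, which coats lipid droplets, fell in vehicle from 169.6, 168 and 108 CPM to 85.02, 102 and 113 CPM, while at 3 µM it was at 82.3, 77.2 and 77.3 CPM at 6 h and 116, 96.9 and 114 CPM at 24 h. For both genes the 6 h libraries of 3 µM CBD lay below all 6 h libraries of vehicle, and the 24 h values overlapped. In the lower doses the 6 h group means of Gadd45g were 41.3 to 62.7 CPM, against 81 CPM in vehicle. Those of Plin2 were 85.8 to 100.8 CPM, against 148.5 CPM in vehicle. The time change at 3 µM was not called as different from the lower doses for Gadd45g or Plin2 (edgeR FDR = 0.717 and 0.15).

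Among the genes with a lower value, Itga1, the integrin α1 chain, was at 9.45, 6.94 and 4.44 CPM at 6 h and 32.6, 26.5 and 25.2 CPM at 24 h in vehicle. In 3 µM CBD it was at 18.4, 27.9 and 19.8 CPM at 6 h and 25.9, 22.7 and 24.6 CPM at 24 h, where the times overlapped (difference −1.94, FDR = 0.0342). Tmem98, a membrane protein, rose in both (2.59 in vehicle and 1.11 at 3 µM, difference −1.48, FDR = 0.0342). Maf, a bZIP transcription factor that the study names, rose by 0.55 at 3 µM (not called without A17 or A6) and 1.77 in vehicle (difference −1.22, FDR = 0.0342). Fign (−1.40), Fbln5, an elastic fibre protein (−0.91), and the X-inactivation transcript Xist (−1.05) were further lower genes. Against the lower doses the edgeR test called Maf (FDR = 0.0865) and Fbln5 (FDR = 0.0841). It did not call Itga1 (FDR = 0.243), Tmem98 (FDR = 0.109), Fign (FDR = 0.143) or Xist (FDR = 0.386).

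Without A16 this set of 14 was reduced to 1 gene, Elp6, and without A28, a vehicle library of 24 h, also to 1 gene. It was 3 without A4, 4 without A5, 7 without A2, 27 without A29, 178 without A17 and 318 without A3, where A2 and A3 are vehicle libraries of 6 h and A29 is of 24 h. With alignments to several places per unique read as a covariate 20 genes were called, among them all 14. No direction was reversed among the 10 genes named here in the fits that left out 1 library.

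**Figure D5:**
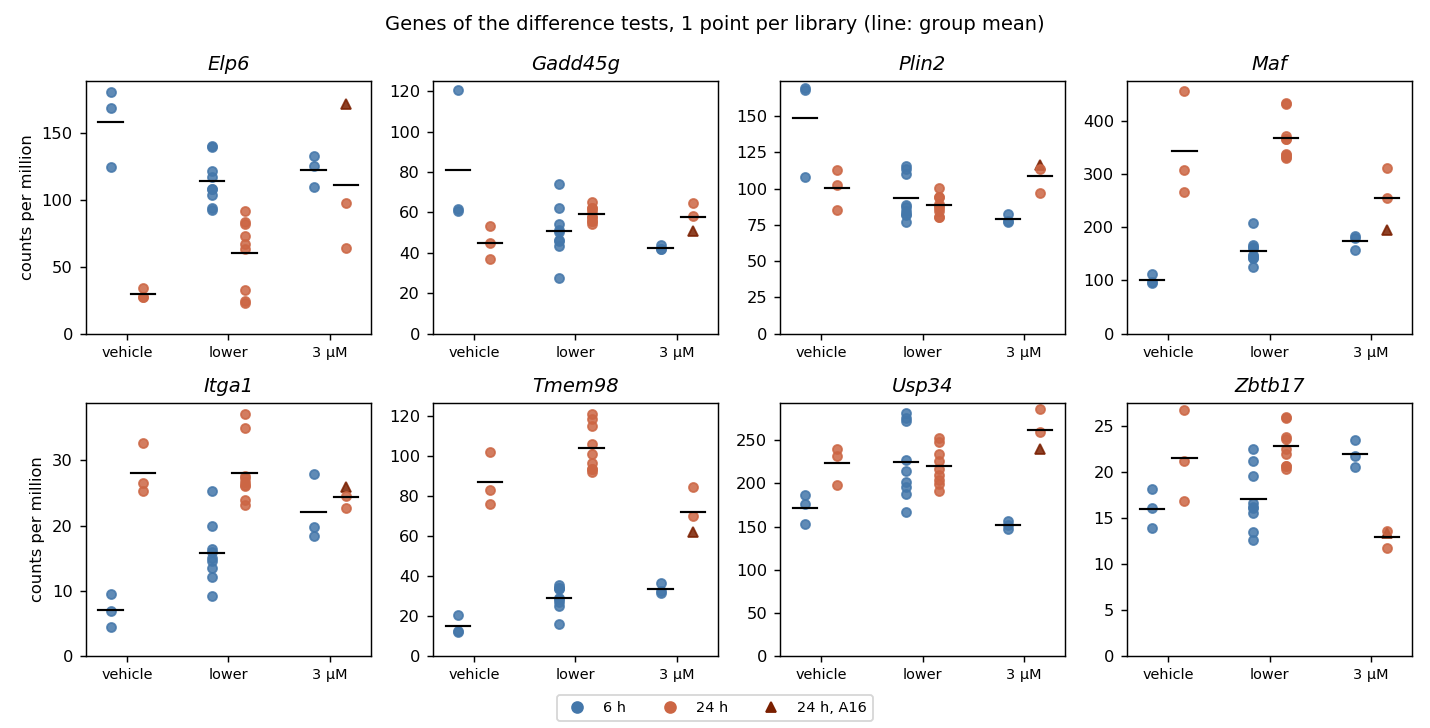
CPM in single libraries of vehicle, the lower doses together and 3 µM CBD at 6 h (blue) and 24 h (orange) for 8 genes of the difference tests, with black lines at group means and A16 as a dark triangle. For Elp6 the 3 vehicle libraries of 24 h lie at 27.5 to 33.7 CPM, those of the lower doses at 22.5 to 91.8 CPM, and the 3 µM libraries at 64.2 to 172 CPM.

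Against the 3 lower doses together, the time change at 3 µM differed for 306 genes (2.39% of 12790), 164 with a higher (1.28%) and 142 with a lower value (1.11%). This count was 0 without A16, 0 without A4, 2 without A5, 12 without A18, 17 without A6 and 1115 without A17, so that it depended on single libraries of the 3 µM groups. With A16 or A4 left out the edgeR test still gave 1394 and 1720 genes an unadjusted p below 0.05, and 2129 with all libraries. Leaving out 1 of the 18 libraries of the lower doses gave between 25 (without A26) and 514 genes (without A13), and the count moved by more than 1.5 times without A8, A9, A10, A11, A12, A14, A19, A21, A22, A23, A24 or A25 as well. With alignments to several places as a covariate 397 genes were called, 291 of the 306 among them. With the share of uniquely mapped reads outside genes as a covariate 7 genes were called, 6 of the 306 among them. The genes with the smallest p-values are given with the values of the 6 libraries.

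Usp34, a deubiquitinase of Wnt signalling, was at 152, 147 and 157 CPM at 6 h and 240.5, 259.8 and 286 CPM at 24 h at 3 µM and had a median of 214 CPM at 6 h and 217 CPM at 24 h in the lower doses (difference 0.82, FDR = 0.0575; 0.88 without A16, FDR = 0.321). Zbtb17, encoding the MYC partner MIZ-1, was at 21.7, 23.6 and 20.6 CPM at 6 h and 13.3, 11.8 and 13.6 CPM at 24 h against medians of 16.2 and 22.6 CPM (difference −1.197, FDR = 0.0575; −1.22 without A16, FDR = 0.33). In both genes the 6 libraries were separated by time at 3 µM. Oip5, a centromere protein, was at 9.49, 5.24 and 6.01 CPM at 6 h and 2.43, 2.94 and 3.07 CPM at 24 h (difference −2.17, FDR = 0.0455). Sec24c, a coat protein of transport from the endoplasmic reticulum, was at 67.3, 77.7 and 70.02 CPM at 6 h and 36.8, 51.2 and 36.4 CPM at 24 h (difference −1.07, FDR = 0.0575). Dkc1, the pseudouridine synthase dyskerin, was at 265, 234 and 250.4 CPM at 6 h and 321, 195 and 292 CPM at 24 h, with A17 lower than A16 and A18 (difference 0.87, FDR = 0.0647; 0.72 without A16). Ddx46 (0.74), the processed pseudogenes Gm44010 (1.31) and Gm13498 (1.27), whose reads may come from other copies, had further higher values, and Nbl1 (−0.78), Idh1 (−1.27) and 2310022B05Rik (−0.83) lower values.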

How the data were processed

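Polyadenylated RNA of 30 libraries was sequenced with QuantSeq 3′ mRNA-Seq FWD. The deposited values are raw read counts per gene and library, made by the authors with quality checks in FastQC 0.11.9, alignment to GRCm39 with STAR 2.7.5c and counting with HTSeq 1.99.2 on Ensembl genes. The strand setting of the counting is not given in the sources used here, so that overlapping and antisense genes may share reads. Summary lines that name no gene stayed out of library sizes, and 0 columns of per-sample values were left unused. Symbols, biotypes and chromosomes came from GENCODE M21 (GRCm38) by Ensembl identifier, with a symbol for 51948 of 56941 genes, and promoters from RefSeq (GRCm38.p6).

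Groups followed the treatment labels. Genes were kept by filterByExpr over 10 groups (12790 genes), scaled by TMM, and tested with edgeR 4.0.16 (R 4.3.3) by a quasi-likelihood F-test in 1 fit of all 30 libraries, which share 1 estimate of the spread, at an FDR (Benjamini-Hochberg) below 0.1. Contrasts were 24 h minus 6 h at 3 µM, and its difference from the same contrast in vehicle and in the mean of the 3 lower doses. CPM values used TMM-scaled library sizes, and distances used log2 CPM with a prior count of 2. The test was also run on simulated counts. These were drawn from the fitted spread with no library set apart, so that they cannot show a dependence on single libraries.

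Named genes were the 12 highest and the 12 lowest log2 fold changes among called protein-coding genes at 20 CPM or more without overlap, the 5 smallest p-values in each direction, up to 4 called members and the marked members of each of 32 gene lists, the genes the study names, and up to 6 genes per direction of each difference. The other called members of the chaperone, stress response, tRNA synthetase and interferon lists, Nupr1, H2-K1, Gja1 and the genes called in opposite directions in vehicle were added after their values were seen. The values of 2 list members are not reported here. The group, the gene lists and the rule were chosen with earlier results of these data known. Depth sets a floor of 3 reads per library, which covers counting error only. Alternatives were DESeq2 1.42.0, RLE scaling, other filters, a threshold of 0.05, covariates, fewer libraries in the fit and leaving out each library.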

Additional observations from a re-analysis of the deposited data

Results flagged for a closer look

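The time change at 3 µM CBD differed from that in vehicle for 14 genes by the edgeR test of the difference of the log2 changes. The values, 3 µM minus vehicle, were 2.27 for Elp6, 1.46 for ENSMUSG00000119584, 1.33 for Gadd45g, 1.02 for Plin2, −0.91 for Fbln5, −1.05 for Xist, −1.22 for Maf, −1.40 for Fign, −1.48 for Tmem98 and −1.94 for Itga1. With 1 of the 12 libraries left out, Elp6 ranged from 1.81 to 2.52 and was called in 12 of 12 fits. The other 9 were called in 4 to 10 of the 12 fits, and none of the 9 was called without A16, where their FDR ranged from 0.101 to 0.257.

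The difference from the lower doses was called for 306 genes. The values, 3 µM minus the lower doses, were 1.40 for ENSMUSG00000119584, 1.31 for Gm44010, 1.27 for Gm13498, 0.87 for Dkc1, 0.82 for Usp34, 0.74 for Ddx46, −0.78 for Nbl1, −0.83 for 2310022B05Rik, −1.07 for Sec24c, −1.20 for Zbtb17, −1.27 for Idh1 and −2.17 for Oip5. Each of the 12 was called in 18 to 22 of the 24 fits with 1 library left out, but 18 of these fits left out a library of the lower doses. None was called without A16, where their FDR ranged from 0.321 to 0.355, or without A4. Over all genes 0 were called without A16 or A4, 2 without A5, 12 without A18 and 17 without A6. The alignments to several places per unique read of A16 (0.251) lay among those of 6 h libraries. With this measure as a covariate the difference from vehicle was called for 20 genes, all 14 among them, and the difference from the lower doses for 397, with 291 of the 306. With the share of uniquely mapped reads outside genes as a covariate the counts were 25, with all 14, and 7, with 6 of the 306. Of the 12 genes given for the lower doses, only Gm44010 and Oip5 kept their call under that covariate.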

How the results depend on the processing

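The 2129 genes called between 24 h and 6 h at 3 µM became 1372 at an FDR below 0.05, 770 with alignments to several places as a covariate, 670 with the percentage of unique reads off genes as a covariate, and 1356 to 2051 with 1 library left out (1356 without A5). Both covariates differed between the times, so that their part and that of time cannot be told apart. The other alternatives gave 1835 to 2179.

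The 14 genes that differed from vehicle became 61 with DESeq2, 142 without a filter on low counts, 1 with only the 12 libraries of the comparison, 25 with the off-gene covariate, 20 with the multiple-alignment covariate, and 1 to 318 with 1 library left out. The 306 genes that differed from the lower doses became 565 with DESeq2, 604 without the filter, 594 with only the 24 CBD libraries, 7 with the off-gene covariate, 397 with the multiple-alignment covariate, and 0 to 1115 with 1 library left out. The cause of these shifts was not tested.

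Over the named genes, 3032 comparisons of a value with its alternatives kept direction and side of the threshold, 378 lost the call, 21 gained it and 0 reversed. Of the list medians, 391 moved by less than the spread of the 24 h libraries and 56 by more. No paired analysis was possible because no replicate number is shared between groups in the labels. The depth of 2287249 to 3239116 reads limits genes near 1 CPM to a few reads per library.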

Other observations

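A total of 9 genes were called at 3 µM and in vehicle in opposite directions, and they are named here for that, after their values were seen. A rise at 3 µM against a fall in vehicle was found for Plin2, a lipid droplet coat (0.46 and −0.56 on the log2 scale), Trib1, a pseudokinase that marks C/EBPα for degradation (0.46 and −0.48), Gdf15, a stress-induced cytokine that reduces food intake (1.04 and −0.75), Sqstm1, the autophagy receptor p62 (0.34 and −0.32), Baz1a, a subunit of chromatin remodellers (0.36 and −0.32), Kctd9 (0.66 and −0.57) and ENSMUSG00002076161 (1.46 and −1.66). Adamts7, a matrix protease (−0.75 and 1.16), and the processed pseudogene Gm7783 (−1.45 and 2.05) did the reverse. Trib1 was at 118, 121 and 107 CPM at 6 h and 134, 170.0 and 171 CPM at 24 h, with all 24 h libraries above those of 6 h. The test of the difference itself called Plin2 (edgeR FDR = 0.0761) and Adamts7 (FDR = 0.073), and for the other 7 the FDR of the difference was 0.103 to 0.194. With 1 of the 6 libraries of 3 µM left out, each of the 9 lost its call at 3 µM in 3 to 6 of the 6 fits, and Baz1a, Gm7783 and ENSMUSG00002076161 in all 6.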
